A study of Rattus norvegicus with 6 samples.

Results

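The genes described here encode the machinery that marks mitochondria for removal by autophagy. They are 9 of the 21026 gene symbols in the deposited table and were chosen by name: the kinase gene Pink1 and the ubiquitin ligase gene Mul1, the outer membrane receptor genes Bnip3, Bnip3l, Fundc1, Fkbp8 and Bcl2l13, and the inner membrane and matrix genes Phb2 and Nipsnap1. All 9 passed the filter on low counts. The study sequenced polyadenylated RNA of rat (Rattus norvegicus) bone marrow mesenchymal stem cells, plastic-adherent marrow cells able to form bone, fat and cartilage, labelled aged in 3 libraries and young in 3. The labels name no treatment or genotype and give no strain, sex, age in months, passage or oxygen tension. They number biological replicates without tying each to an animal, so p-values measure the spread between libraries, which may be partly technical.

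Mitophagy can begin in several ways. In the ubiquitin-dependent route PINK1, which healthy mitochondria import and destroy, builds up on the surface of damaged ones and phosphorylates ubiquitin, and the ubiquitin chains that ligases then build on the outer membrane are read by soluble autophagy receptors. In the receptor-mediated route, proteins anchored in the mitochondrial membrane bind the LC3 and GABARAP proteins of the forming autophagosome directly. BNIP3, NIX (the product of Bnip3l) and FUNDC1 are best known from this route in cells short of oxygen and, for NIX, in maturing red blood cells.

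The libraries held 34638874 to 42479626 counts. Values below are CPM, counts divided by the library total and scaled to a common size, with a TMM factor per library that assumes most genes do not change, and each difference is a log2 fold change of aged over young from edgeR's quasi-likelihood test, adjusted by Benjamini-Hochberg over 14273 genes. The contrast moved most of the transcriptome: 86.4% of tested genes were called at adjusted p under 0.05, and in 87.5% the CPM of the groups did not overlap. Young replicate 2 stood somewhat apart, with a chi-square per degree of freedom of 10.6 and 8.73 against the other young libraries, where those 2 gave 3.58 between them. Mitochondria-encoded transcripts took 4.33% ± 0.113 of counts in aged and 1.18% ± 0.157 in young libraries (SD, n = 3 each). Of 12 stromal markers 3 were higher, 7 lower and 2 not called in aged cells (6 higher and 5 lower with library size alone). Thy1 and Col1a1 stayed above 1000 CPM in both groups but fell 2.61-fold and 1.79-fold, Cxcl12 fell 16.7-fold, Nt5e rose 4.48-fold and Eng was not called (-0.02), while Lepr and Vcam1 averaged under 1 CPM in each group. Summed CPM of 11 white blood cell markers was 43.7 to 44.8 in aged and 104 to 107 in young libraries. Of these, Csf1r averaged 21.8 CPM in aged and 0.321 CPM in young cells and Cd14 averaged 21.0 CPM in aged and 80.7 CPM in young cells. Mpo averaged 0.0503 CPM in aged and 10.7 CPM in young cells and Lyz2 averaged 0.173 CPM in aged and 10.4 CPM in young cells. Ptprc, Adgre1 and Tyrobp were near 0 in both groups. Ptprc had 1 count in aged replicate 3 and none elsewhere. Adgre1 and Tyrobp had none in any aged library and at most 7 and 3 counts in a young one. The 6 endothelial markers summed to under 1 CPM in every library. The part of these shifts in the results below was not tested, and in bulk RNA fewer cells of a type cannot be told apart from less RNA per cell.

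Of the 9 genes, 6 were lower in aged cells (Pink1, Bnip3, Bnip3l, Fkbp8, Phb2 and Nipsnap1) and 3 were higher (Mul1, Fundc1 and Bcl2l13). All 9 were called and in all 9 the groups did not overlap, against backgrounds of 86.4% and 87.5% of all tested genes, so neither count sets these genes apart. Over all tested genes 41.8% were called lower and 44.7% higher. A called change of at least 2-fold was seen in 3 of the 9, Pink1, Fkbp8 and Nipsnap1, all of them lower under TMM, against 50.4% of all tested genes. With library size alone Pink1 was just under 2-fold lower (log2 change -0.99) and Bcl2l13 passed 2-fold on the higher side (1.03), so that set depends on the scaling. Their median log2 change was -0.35, beside 0.05 over all genes tested. The direction of the smallest changes rests on the scaling. With library size alone every change shifts up by about 0.34 on the log2 scale. Bnip3 was then no longer called (log2 change -0.01, edgeR adjusted p = 0.785), Bnip3l turned to 0.09 (edgeR adjusted p = 0.0803), and Phb2 kept a fall of 0.11 (edgeR adjusted p = 0.0168). The same 3 genes were higher and 4 were lower under that scaling. Without young replicate 2 the count stayed at 3 higher and 6 lower.

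**Figure D1:**
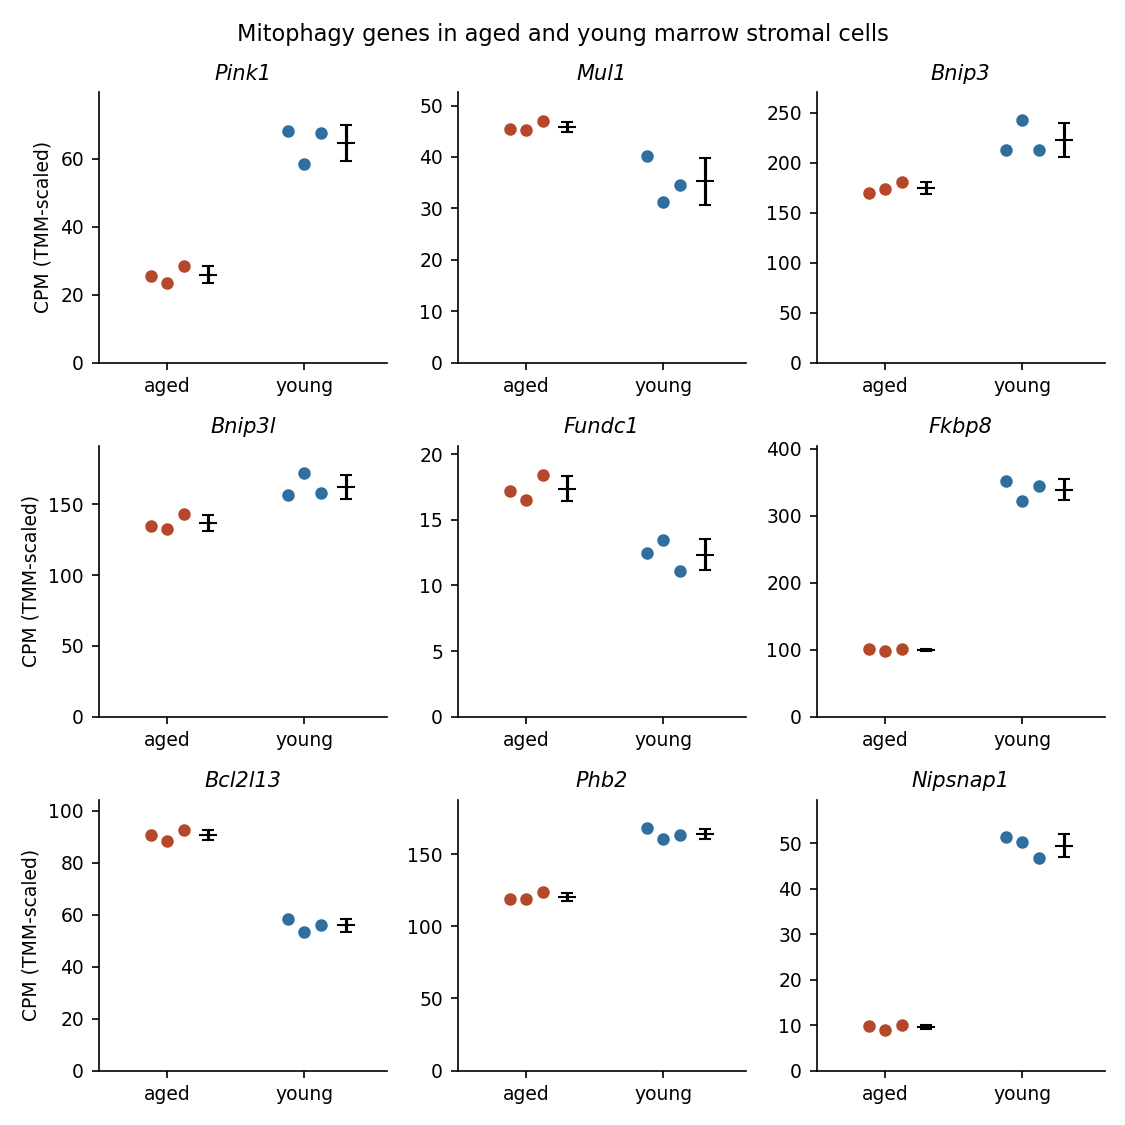
TMM-scaled CPM of the 9 genes in each library, aged left of young in every panel; points are libraries and bars are mean ± SD (n = 3 each), with each vertical axis starting at 0. Fkbp8 fell to 98.6 to 101 CPM in aged cells, against 322 to 352 CPM in young cells, and Nipsnap1 to 9.03 to 9.95 CPM, against 46.8 to 51.5 CPM. Aged cells are higher for Mul1, Fundc1 and Bcl2l13; the lower values of Bnip3 and Bnip3l in aged cells depend on the scaling, and with library size alone Bnip3 is level and Bnip3l turns slightly upward.

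In the ubiquitin-dependent route, the kinase and the alternative ligase moved in opposite directions. Pink1 had 25.5, 23.4 and 28.5 CPM in the aged libraries, against 68.0, 58.3 and 67.4 CPM in the young ones. The highest aged library lay well below the lowest young one, which was young replicate 2. The log2 change was -1.32 (95% interval -1.49 to -1.16), a 2.51-fold fall (2.24 to 2.80) with an edgeR adjusted p of 1.8e-11. It ranked at percentile 14.5 of all log2 changes, counted from the most negative. Leaving out any 1 library kept it between -1.40 and -1.26.

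Mul1 encodes a ubiquitin ligase anchored in the outer membrane, which acts on mitofusins. It had 45.5, 45.2 and 47.0 CPM in aged libraries, against 40.2, 31.2 and 34.5 CPM in young ones. The 3 aged values lay close together and above a more scattered young group. The rise was 1.30-fold (95% interval 1.17 to 1.45, log2 change 0.38, edgeR adjusted p = 1.7e-04). In every aged library there were more Mul1 than Pink1 reads, 1.65 to 1.93 per Pink1 read, against 0.512 to 0.590 in young libraries. A ratio within a library does not depend on the scaling between libraries, and this one was 3.28 times as high in aged cells. In RefSeq's rat assembly GRCr8 both genes lie on chromosome 5 with 3 annotated genes between them. Of these Cda, a cytidine deaminase gene, fell by 2.38 on the log2 scale and Fam43b rose by 5.55.

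Promoters of Pink1 and Mul1 are shown because both carry the palindrome CACGTG, the core bound by the MITF/TFE and MYC families, and moved in opposite directions. They run from 250 bases before to 50 after the annotated start, 5′ to 3′ on the gene's strand, from RefSeq's GRCr8, at chr5:155825901-155826200 (minus strand) and chr5:155935862-155936161 (plus strand). Capitals mark ACGTG and GCGTG on either strand, the core letters of hypoxia response elements. Each CACGTG contains ACGTG on both strands.
Pink1: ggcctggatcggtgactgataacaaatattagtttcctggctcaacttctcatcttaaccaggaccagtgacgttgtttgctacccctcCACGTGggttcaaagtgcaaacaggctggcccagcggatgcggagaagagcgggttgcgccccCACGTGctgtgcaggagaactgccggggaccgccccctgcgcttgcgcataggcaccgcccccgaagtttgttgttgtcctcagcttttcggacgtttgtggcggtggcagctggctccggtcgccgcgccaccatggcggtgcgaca
Mul1: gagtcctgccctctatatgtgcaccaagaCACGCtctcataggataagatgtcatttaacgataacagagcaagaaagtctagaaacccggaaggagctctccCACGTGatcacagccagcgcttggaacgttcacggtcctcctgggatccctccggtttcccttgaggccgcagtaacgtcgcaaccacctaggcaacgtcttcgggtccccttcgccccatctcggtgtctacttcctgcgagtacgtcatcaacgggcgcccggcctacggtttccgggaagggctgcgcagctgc
CACGTG begins 161 and 98 bases before the start of Pink1 and 147 before that of Mul1. It occurs in 6.65% of 27457 rat promoters of this length, and in 9.38% of the 11183 that belong to tested genes. Tested genes with the match were higher in 42.7% and lower in 45.1%, and those without it in 44.4% and 42.6%.

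The 5 outer membrane receptor genes divided, with Fkbp8, Bnip3 and Bnip3l lower and Bcl2l13 and Fundc1 higher under TMM, while with library size alone Bnip3 and Bnip3l were not called. Fkbp8 encodes an FK506-binding protein that also restrains apoptosis and binds LC3A. It had 101, 98.6 and 100.3 CPM in aged libraries, against 352, 322 and 344 CPM in young ones. The aged values nearly coincided, and no young library came near them. The fall was 3.40-fold (95% interval 3.20 to 3.60, edgeR adjusted p = 5.1e-17). Annotated Fkbp8 overlaps the neighbouring gene Kxd1, and without a stated strand setting reads in the overlap cannot be assigned with certainty. Kxd1 itself fell 1.53-fold, less than Fkbp8.

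Bcl2l13, the mammalian counterpart of the yeast mitophagy receptor Atg32, had 90.8, 88.5 and 92.7 CPM in aged libraries, against 58.3, 53.3 and 56.3 CPM in young ones. Every aged library exceeded every young one, and the rise was 1.62-fold (95% interval 1.51 to 1.74, log2 change 0.70, edgeR adjusted p = 3.7e-10). Set against each other within libraries, Fkbp8 and Bcl2l13 reads stood at 1.08 to 1.11 in aged and 6.03 to 6.11 in young cells. The ratio was 0.182 times as high in aged cells.

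Fundc1 encodes a receptor that is switched off by phosphorylation through SRC and casein kinase 2 and switched on by the phosphatase PGAM5. It had 17.2, 16.5 and 18.4 CPM in aged libraries, against 12.5, 13.4 and 11.1 CPM in young ones. The groups were separate, with young replicate 2 the highest of the young libraries. The rise was 1.41-fold (95% interval 1.23 to 1.61, edgeR adjusted p = 8.3e-05). Its relative Fundc2 fell 2.14-fold, to 30.5 ± 0.728 CPM in aged cells, against 65.2 ± 3.40 CPM in young cells (SD, n = 3 each). Per Fundc2 read there were 0.552 to 0.587 Fundc1 reads in aged and 0.164 to 0.219 in young libraries.

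Bnip3 and Bnip3l, a related pair with a BH3-like region, changed least. Bnip3 had 169, 174 and 181 CPM in aged libraries, against 213, 242 and 213 CPM in young ones. Young replicate 2 was the highest, and the remaining young libraries were nearly equal. Its log2 change was -0.35 (95% interval -0.45 to -0.25, edgeR adjusted p = 2.8e-06). Bnip3l had 135, 132 and 143 CPM in aged libraries, against 157, 172 and 158 CPM in young ones. Young replicate 2 was again highest. Its log2 change was -0.25 (95% interval -0.34 to -0.15, edgeR adjusted p = 7.6e-05). Both falls were lost with library size alone. Relative to Pink1 both stood higher in aged cells whatever the scaling: there were 6.35 to 7.43 Bnip3 reads per Pink1 read in aged libraries, against 3.13 to 4.15 in young ones, and 5.02 to 5.64 Bnip3l reads, against 2.30 to 2.94. Between the pair the ratio differed little, 1.26 to 1.32 Bnip3 reads per Bnip3l read in aged and 1.35 to 1.41 in young libraries. Bnip1 and Bnip2 share the name prefix. Bnip1 fell 3.22-fold, and Bnip2 had a log2 change of -0.17, smaller than the shift between scalings. RefSeq names 8 pseudogenes of Bnip3 and 1 each of Bnip3l and Bcl2l13, none of them a row of the table. How reads matching such copies were counted is uncertain.

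**Figure D2:**
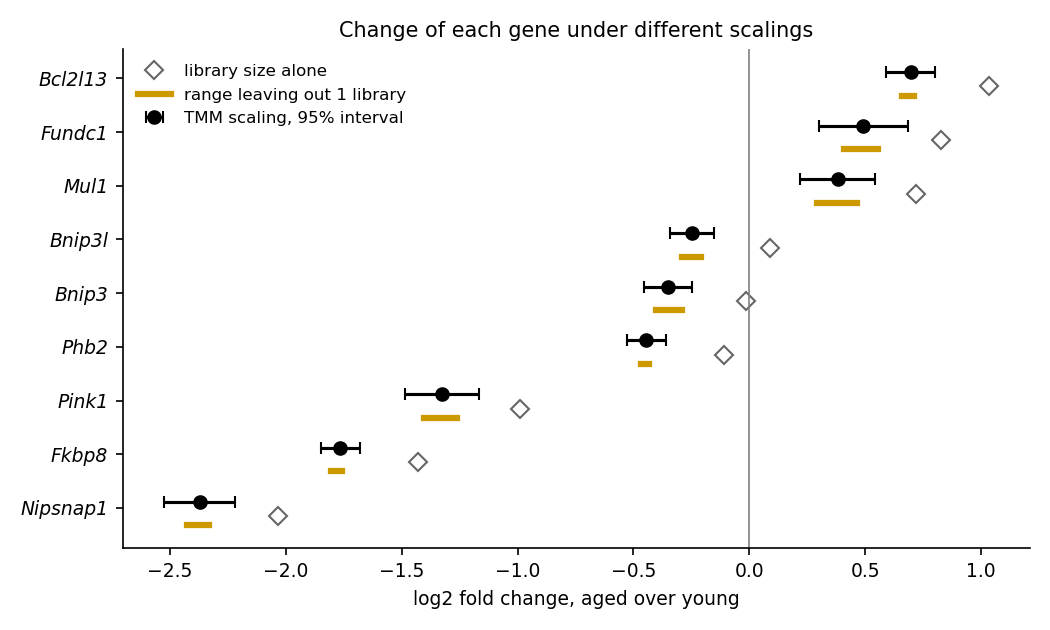
Log2 fold change of each gene, aged over young: black points with 95% intervals under TMM scaling, open diamonds with library size alone, and bars for the range when 1 library is left out. Diamonds lie about 0.34 to the right of the points, which takes Bnip3 to -0.01, just below 0, and Bnip3l across 0 to 0.09. Neither is then called, and the other 7 genes stay called on their side of 0.

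Shares of the summed receptor reads show the change in makeup without any scaling between libraries. Bcl2l13 gave 17.5% ± 0.215 of them in aged and 7.07% ± 0.377 in young cells, and Fundc1 gave 3.34% ± 0.0978 and 1.56% ± 0.129. Fkbp8 gave 19.2% ± 0.439 in aged and 42.8% ± 2.38 in young cells. Bnip3 took 33.6% ± 0.569 in aged and 28.1% ± 1.83 in young cells, and Bnip3l 26.3% ± 0.399 and 20.5% ± 0.837 (SD, n = 3 each throughout). Reads are not corrected for transcript length, so a share can be followed between libraries but not compared between genes. The summed CPM of the 5 genes under TMM was 519 ± 13.6 in aged and 792 ± 10.5 in young cells. Most of that difference was Fkbp8, at 99.8 CPM in aged and 339 CPM in young cells. A share also rises when another gene falls, and Bnip3 and Bnip3l gained share although their own CPM was lower under TMM.

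**Figure D3:**
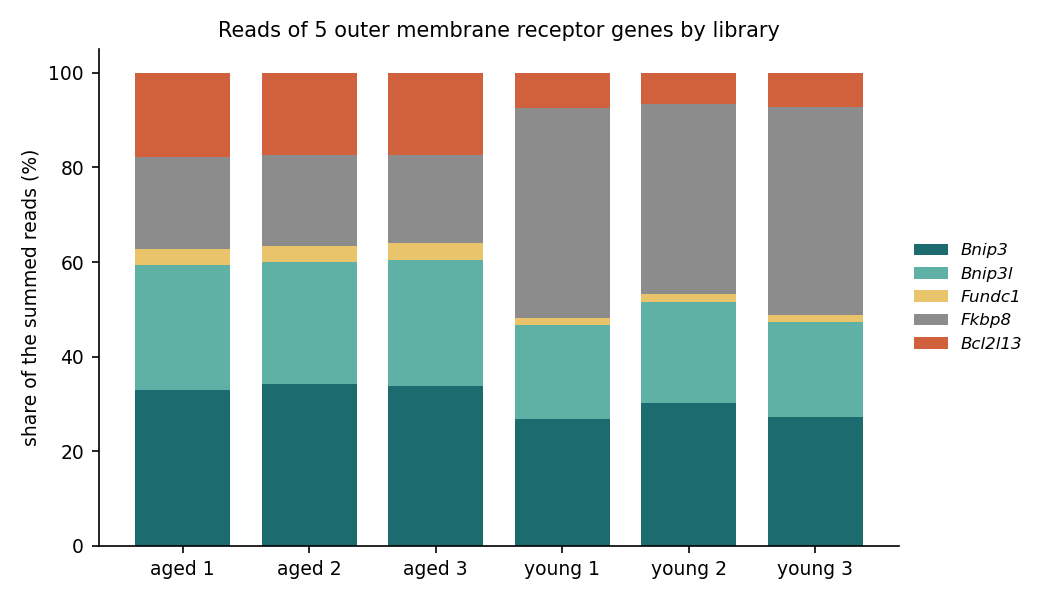
Share of the summed reads of 5 outer membrane receptor genes (percent, vertical axis) in each of 3 aged and 3 young libraries, stacked by gene. Fkbp8 (grey) takes 19.2% on average in aged and 42.8% in young libraries, and Bcl2l13 (orange) 17.5% and 7.07%.

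Promoters of Bnip3, a textbook target of hypoxia-inducible factors, and of Fkbp8, the receptor gene with the largest fall, are shown with the same marking. They lie at chr1:203154913-203155212 and chr16:18936494-18936793 in GRCr8, both on the minus strand.
Bnip3: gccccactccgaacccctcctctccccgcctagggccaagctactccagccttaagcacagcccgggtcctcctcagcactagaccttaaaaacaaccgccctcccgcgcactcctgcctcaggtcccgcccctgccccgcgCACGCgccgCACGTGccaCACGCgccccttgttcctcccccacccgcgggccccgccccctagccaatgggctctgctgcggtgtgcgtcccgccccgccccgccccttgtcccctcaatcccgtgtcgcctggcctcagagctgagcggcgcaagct
Fkbp8: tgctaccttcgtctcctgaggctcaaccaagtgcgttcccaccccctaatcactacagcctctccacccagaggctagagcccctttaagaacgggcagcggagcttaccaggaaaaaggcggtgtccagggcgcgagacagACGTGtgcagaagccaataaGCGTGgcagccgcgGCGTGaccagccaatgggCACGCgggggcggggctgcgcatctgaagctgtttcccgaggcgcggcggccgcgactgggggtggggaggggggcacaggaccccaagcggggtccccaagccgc
Bnip3 holds CACGTG 99 bases before its start, flanked by GCGTG on the opposite strand at 108 and 90 bases before it. Fkbp8 holds ACGTG 108 bases before its start and 3 matches to GCGTG nearer to it. Among all 27457 promoters 19.7% hold ACGTG and 31.1% hold GCGTG, on either strand. Among the 11183 of tested genes the shares are 25.5% and 48.9%, so such matches are common. TGTTTAC, a forkhead factor motif, was found in none of the 7 member promoters in the table, in 3.76% of all and in 2.32% of those of tested genes.

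Nipsnap1 and Phb2, whose products sit inside the mitochondrion and become exposed when it is damaged, were both lower in aged cells. Nipsnap1 encodes a matrix protein that gathers on the surface of depolarised mitochondria and recruits autophagy adaptors. It had 9.76, 9.03 and 9.95 CPM in aged libraries, against 51.5, 50.4 and 46.8 CPM in young ones. This was the largest change among the 9 genes, a fall of 5.17-fold (95% interval 4.65 to 5.76, edgeR adjusted p = 2.7e-15), at percentile 5.21 of all log2 changes. Nipsnap2, a close relative with the same role in human cells, fell 3.58-fold, to 12.1 ± 1.34 CPM in aged cells, against 43.3 ± 0.976 CPM in young cells (SD, n = 3 each). The Nipsnap1 promoter, at chr14:83957464-83957763 in GRCr8 (plus strand), is shown as that of the member with the largest fall.
Nipsnap1: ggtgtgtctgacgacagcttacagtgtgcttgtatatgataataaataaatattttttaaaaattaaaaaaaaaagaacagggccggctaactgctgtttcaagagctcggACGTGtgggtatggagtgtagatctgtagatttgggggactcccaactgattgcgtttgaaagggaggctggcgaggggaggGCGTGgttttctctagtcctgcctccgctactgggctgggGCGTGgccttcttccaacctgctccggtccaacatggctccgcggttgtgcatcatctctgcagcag
It holds ACGTG 139 bases before the start and GCGTG at 57 and 17 bases before it.

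Phb2 encodes prohibitin 2, a scaffold of the inner membrane that binds LC3 once the outer membrane has ruptured. It had 119, 119 and 124 CPM in aged libraries, against 168, 161 and 163 CPM in young ones. The groups were tight and apart, and the fall was 1.36-fold (95% interval 1.28 to 1.44, edgeR adjusted p = 8.3e-09). Phb1, which encodes its ring partner, had a log2 change of -0.24 (edgeR adjusted p = 3.4e-04) that is smaller than the shift between scalings. Reads of Phb2 per Phb1 read were 1.14 to 1.21 in aged and 1.32 to 1.41 in young libraries. RefSeq names 3 pseudogenes of Phb2. Annotated Phb2 also overlaps LOC120102747, so the limit on overlapping reads given for Fkbp8 applies here too.

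**Figure D4:**
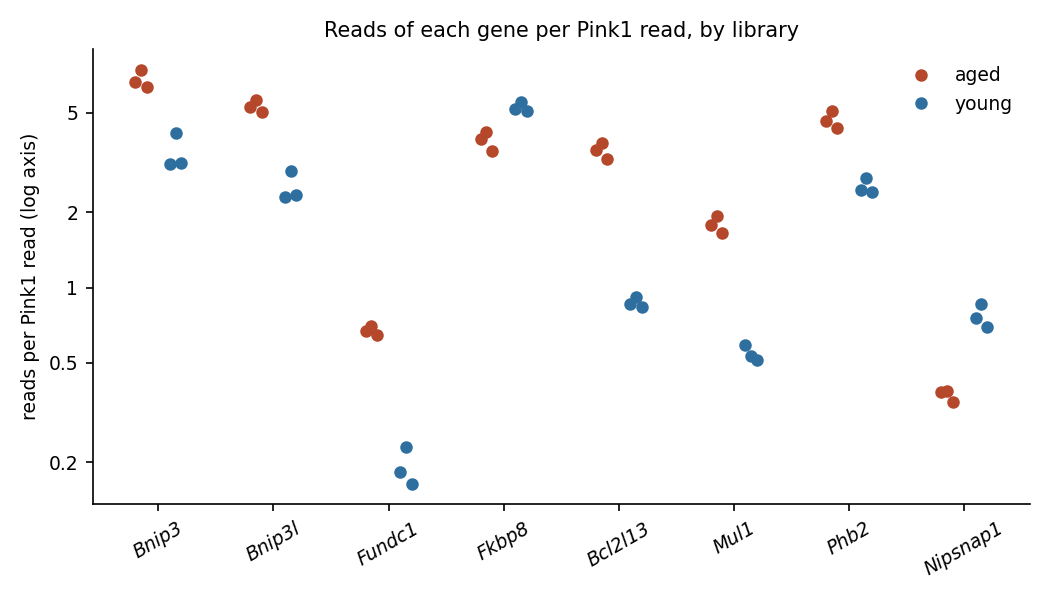
Reads of each of the other 8 genes per Pink1 read in every library, on a log axis, aged left of young; counts are not corrected for length, so only aged and young of 1 gene can be compared. Bnip3, Bnip3l, Fundc1, Bcl2l13, Mul1 and Phb2 lie higher in aged libraries, and Fkbp8 and Nipsnap1 lower. Pink1 itself fell further than most tested genes.

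Seen from Pink1, the other genes fell into 2 sets. Fundc1, Bcl2l13, Mul1, Bnip3l, Bnip3 and Phb2 had more reads per Pink1 read in each aged library than in any young one, with ratios 3.54, 4.06, 3.28, 2.11, 1.97 and 1.84 times as high. Fkbp8 and Nipsnap1 had fewer, at 0.738 and 0.484 times. Pink1 itself lies at percentile 14.5 of all log2 changes, counted from the most negative. Most tested genes therefore also gained reads relative to it, and the higher ratios do not set these genes apart. These values are descriptions, and no test was made over the 9 genes.

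The partners of both routes, grouped by role, moved in either direction. Of 60 listed genes 58 were tested, with 23 higher, 32 lower and 3 not called, and a median log2 change of -0.32. Over all tested genes 86.4% were called, 44.7% higher and 41.8% lower, and the median was 0.05. These shares are the background for the TMM counts of every list below. With library size alone 27 were higher, 26 lower and 5 not called, and the median was 0.01. Over all tested genes that scaling gave 7704 higher and 4654 lower, with a median of 0.39. The excess of lower over higher partners thus rests on the scaling, but under both scalings their median lay below that of all genes. No test was made over the partners. Among 15 tested genes of PINK1 import, cleavage and chaperoning 5 rose and 10 fell (the same under each scaling), with a median of -0.54. Hsp90aa1, an HSP90 gene whose product stabilises PINK1, rose 12.2-fold, to 618 ± 6.30 CPM in aged cells, against 50.8 ± 6.50 CPM in young cells. Tomm70 rose 2.95-fold, whereas Tomm7, needed in human cells to hold PINK1 on the outer membrane, fell 3.02-fold. Parl, the protease gene that cleaves imported PINK1, fell 1.54-fold. Oma1 and Yme1l1, protease genes of the inner membrane, rose 2.60-fold and 4.01-fold.

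Ubiquitin genes, conjugating enzymes and ligases numbered 11, of which 6 rose, 4 fell and 1 was not called (7 and 4 with library size alone). Arih1, a ligase gene that acts in mitophagy of cancer cells, rose 4.71-fold, and Huwe1, a ligase gene, rose by 1.27 on the log2 scale. Smurf1, another ligase gene, fell 2.30-fold. Siah1 had a log2 change of 0.11 and was not called. Of 5 deubiquitinase genes 4 rose and 1 fell (4 and 0 with library size alone). Usp15, which removes ubiquitin from mitochondria, rose to 91.8 ± 4.35 CPM in aged cells, against 4.36 ± 0.986 CPM in young cells (SD, n = 3 each). Usp8 rose by 1.54 on the log2 scale, and Usp30, the deubiquitinase gene of the outer membrane, rose 1.23-fold. Among 11 outer membrane substrate genes 3 rose, 7 fell and Mfn2 was not called (5 and 5 with library size alone). Rhot1 and Mfn1 rose by 2.40 and 1.25 and Vdac1 fell by 1.19 on the log2 scale.

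Genes whose products switch or degrade the membrane receptors were also divided, with 5 of 11 tested higher, 5 lower and Csnk2a2 not called (6 and 3 with library size alone). Bcl2l1, whose product BCL-XL holds PGAM5 in check, rose 2.52-fold. Src fell by 0.84 on the log2 scale. Of the casein kinase 2 genes the catalytic Csnk2a1 rose 1.70-fold, the regulatory Csnk2b fell by 0.92 and the catalytic Csnk2a2 stood at 0.10, uncalled. Pgam5 rose by 0.54. Pptc7 and Fbxl4, which limit the amount of BNIP3 and NIX, rose by 0.86 and 0.41. Bcl2 was too low to test. The LC3 and GABARAP genes were the only one of these 6 roles with all tested members called on one side under TMM. There 5 of 5 fell, with a median of -0.67, and 4 of 5 were called lower with library size alone. Over all tested genes 41.8% were called lower under TMM. With the deubiquitinases this was the smallest role, at 5 tested genes, so calls on one side come most easily here. Map1lc3a fell 4.39-fold and Gabarap 2.42-fold, and Gabarapl1 had the smallest change of the 5 at -0.28.

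**Figure D5:**
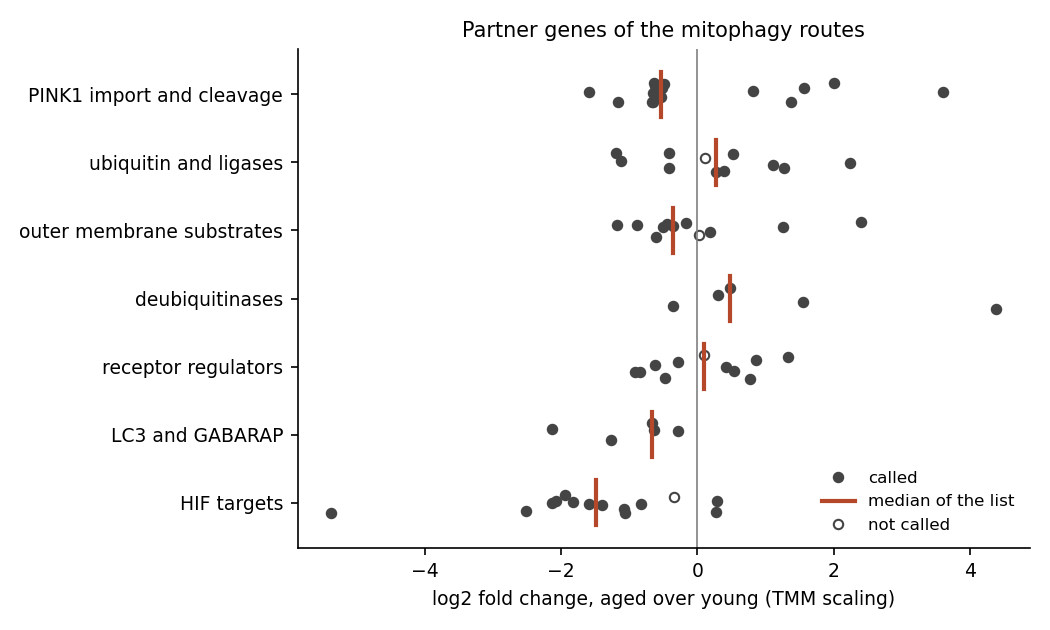
Log2 fold change, aged over young under TMM scaling, of partner genes grouped by role and of targets of hypoxia-inducible factors (HIF); filled points are called at adjusted p under 0.05, open points are not, and the bar is the list's median. All 5 LC3 and GABARAP genes lie left of 0, and library size alone would move every point about 0.34 to the right.

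Regulators and targets of the oxygen response were measured beside Bnip3, Bnip3l and Fundc1. Of 14 listed HIF target genes 11 fell and 2 rose, under TMM and with library size alone alike. The median log2 change was -1.49 under TMM and -1.15 with library size alone. Egln3, an oxygen-sensing hydroxylase gene, fell by 5.38 and Pdk1 by 2.51 on the log2 scale. Pgk1, a glycolysis gene, fell 3.83-fold and Ankrd37 was not called (-0.35). Bnip3 and Bnip3l, at -0.35 and -0.25 under TMM, changed less than the TMM median. Hif1a rose 4.33-fold and Epas1, which encodes HIF-2 alpha, fell 6.25-fold, to 89.7 ± 2.36 CPM in aged cells, against 560.1 ± 22.2 CPM in young cells (SD, n = 3 each). Foxo3, a factor gene that acts on Bnip3 in muscle, rose by 0.79. Tfeb was not called (-0.09) and its relative Tfe3 fell by 0.55. Nfe2l2, which encodes NRF2, rose by 2.42, and Ppargc1a was too low to test.

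As a measure of nuclear-encoded mitochondrial transcripts, 20 genes of mitochondrial proteins had a median log2 change of -0.47, with 13 lower, 6 higher and Uqcrc2 not called (0.09). With library size alone 11 were lower and 7 higher, with a median of -0.14. Under TMM Slc25a4, an ADP/ATP carrier gene, fell 3.18-fold and Hspa9, a chaperone gene of the matrix, rose 4.40-fold. The share of mitochondria-encoded transcripts given above went the other way, higher in aged libraries. Under TMM Pink1, Fkbp8 and Nipsnap1 fell further than the median of the nuclear genes, Phb2 was close to it, and Mul1, Fundc1 and Bcl2l13 lay on the other side of 0. Whether the members' changes differ from those of mitochondrial genes as a class was not tested.

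Genes with the most similar pattern over the 6 libraries were ranked among 10024 with a mean of at least 5 CPM, by Euclidean distance of centred log2 CPM. Zdhhc1, Tmem223 and Gmppb lay nearest to Pink1, at distances of 0.0759, 0.111 and 0.120. Nearest to Bnip3l were Nav1, Gla and Pole3, at 0.0611, 0.0637 and 0.0662, and nearest to Mul1 were Zbtb5, Mtmr1 and Klhdc8b, at 0.0742, 0.0862 and 0.0956. With 2 groups that differ in most genes, such likeness mainly reflects a similar size of the group difference.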

How the data were processed

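Polyadenylated RNA was sequenced in 6 libraries, 3 aged and 3 young, made with a VAHTS Universal V6 kit, per the labels' protocols. The authors deposited raw read counts per gene symbol, 1 column per library. Tools listed per the submitters' processing notes are fastp, HISAT2 and HTSeq. Their versions and the genome build, annotation and strand setting were not given in the sources used here. Columns were matched to samples through the library names in the labels.

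Counts were analysed with edgeR 4.0.16 in R 4.3.3: filterByExpr (minimum count 10), TMM scaling and the quasi-likelihood F test with group as the only term. Adjusted p-values (Benjamini-Hochberg) cover 14273 genes, called under 0.05. Standard errors are the log2 change over the square root of F, and 95% intervals use the t quantile of the fit. The procedure was run on simulated counts with 200 genes changed. It recovered 40% of 1.2-fold, 94% of 1.5-fold and 100% of 2-fold changes. Of all its calls 3.47% were false. With so few genes changed, the adjustment of p was stricter than in the data, so these recovery rates do not carry over to them. For the same reason the simulation could not test the TMM assumption in data where most genes were called. DESeq2 1.42.0 and other scalings served as alternatives. Intervals cover the spread between libraries only. No duplicate libraries were found. Transcript length and GC content were not computed, as no transcripts were used here.

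The members and partner lists were chosen with earlier results of these data known. All 9 members are named. From each list the rule names up to 2 called genes with the smallest p, up to 2 with the largest change at a mean of at least 5 CPM, and those not called or not tested. Other listed genes, and Cda, Fam43b and Kxd1, were named for role or position with their values seen. Promoters came from a table of RefSeq promoters (GRCr8) with entries for 7 of the 9 members. Some genes of the pathway are not reported here.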

Additional observations from a re-analysis of the deposited data

How the results depend on the processing

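Each of the 9 log2 changes was recomputed under 12 alternatives: RLE, upper quartile and library size scaling, no low-count filter, DESeq2, a replicate block, and leaving out each library in turn. Of these 108 values 106 kept their direction and their side of the threshold. Both exceptions came with library size alone, where Bnip3 was -0.01471 (edgeR adjusted p = 0.785) and Bnip3l reversed to 0.08998 (edgeR adjusted p = 0.0803). That scaling moved the median of all genes by 0.336 on the log2 scale and raised the higher share of called genes to 62.3%, beside 51.7%, which is the shift seen in both genes. Which scaling is nearer to the amount of RNA per cell was not tested. Leaving out 1 library gave 3 higher and 6 lower members every time.

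Across genes, deviations from the group mean correlated at -0.011, 0.00286 and 0.013 between aged and young libraries of the same number. Libraries of different numbers gave -0.0171 to 0.0146. Whether equal numbers share an animal or a batch cannot be read from these values. With the replicate block 6279 genes were higher and 5883 lower, beside 6375 and 5964, and the members stayed at 3 higher and 6 lower. Each of the 9 genes had at least 388 counts in every library, so depth limits their values little.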
